A study of Homo sapiens with 12 samples.

Results

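LNCaP-abl (Abl) is a prostate cancer line that was derived from LNCaP cells by long growth with little androgen. Its response to GATA2 knockdown was read on 6 of the 12 Illumina BeadChip arrays of the study, 3 for cells given a non-targeting siRNA (siNT) and 3 for cells given an siRNA against GATA2 (siGATA2). Both Abl groups were grown in medium free of phenol red with 10% charcoal-stripped serum, which is low in androgen, and were transfected with 25 nM siRNA using Lipofectamine RNAiMax. RNA was taken 72 h later. The labels name 1 Stealth siRNA against GATA2, so effects of the siRNA on RNAs other than its target cannot be told apart from effects of GATA2, and Abl was the only line grown under these conditions. The other 6 arrays hold MDVR cells, LNCaP cells made resistant to enzalutamide, an androgen receptor antagonist. They had 10% fetal bovine serum, 25 microM enzalutamide during selection and 10 microM during the experiment, and received the same siRNAs in groups of 3. They are used here only where the Abl change is set against theirs. Probes entered if the scanner called them detected (detection p under 0.05) on at least 3 of the 6 Abl arrays. This kept 19487 of 47323 probes, and 11079 of the 12630 genes with a named probe.

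GATA2 is a zinc finger transcription factor best known from blood stem cells and mast cells. In prostate cells it binds enhancers together with the androgen receptor and FOXA1 and helps to keep their chromatin open. LNCaP-abl cells are used as a model of prostate cancer that goes on growing when androgen is withdrawn. The comparison of siGATA2 with siNT asks which RNAs of this line depend on the factor.

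Levels are given as normalized log2 intensity, the brightness of a gene's probe after background correction and quantile normalization. A change is the siGATA2 mean minus the siNT mean on that scale, and a gene was called where limma's Benjamini-Hochberg adjusted p over all genes was under 0.05. Levels of different probes are not comparable with each other. Between 19103 and 19932 probes were detected on each Abl array (40.4% to 42.1%). Arrays correlated at r = 0.989 to 0.991 within siNT, 0.991 to 0.992 within siGATA2 and 0.974 to 0.979 between them, and the first principal component, with 66.4% of the variance, separated the groups. Replicate 1 of siNT stood apart from the other 5 arrays on the second component, which held 12.3%. All 11 luminal prostate markers with a named probe, KRT8, EPCAM, HOXB13 and FOXA1 among them, were detected on all 6 arrays. No basal marker of the list had a named probe here. In RNA from whole cultures, fewer cells of a kind and less RNA per cell cannot be told apart.

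GATA2 RNA itself was lowered only in part at 72 h. On the siNT arrays its probe, ILMN_2102670, read 9.12, 8.80 and 8.82, and on the siGATA2 arrays 8.43, 8.58 and 8.48. The groups did not overlap, and the highest value was siNT replicate 1. Its mean was 1.33-fold lower under siGATA2, a log2 change of -0.41 (SE 0.12, adjusted p = 0.00974). Without siNT replicate 1 the change was -0.31 and was not called (adjusted p = 0.055). Of the other GATA factors and partners on the list, LMO4, a LIM domain adaptor that forms complexes with GATA factors, fell by 0.42 (SE 0.07). The values for LDB1 (0.21) and ZFPM1 (-0.07), 2 further cofactors, were not called. GATA2 protein was not measured.

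Around the target, 3770 of 11079 genes were called, 1833 higher (16.5% of those tested) and 1937 lower (17.5%), which makes 34% in all. The change reached 2-fold in 184 genes that rose (1.66%) and 241 that fell (2.18%). The arrays of the groups did not overlap for 5005 genes (45.2%), and for 3604 of the called genes. The median size of a called change was 0.52 on the log2 scale. Sizes depended on the background correction. Over 20 other settings the change of ID1 ran from 2.61 to 4.59, and the median of the G2 and mitosis kinases was -1.54 as reported, -0.77 without background correction and -0.63 on the authors' processed values. The probes without a single gene name added 359 calls higher and 400 lower. For 123 genes the probe was detected on every array of 1 group and on none of the other, 63 of them under siNT and 60 under siGATA2.

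**Figure D1:**
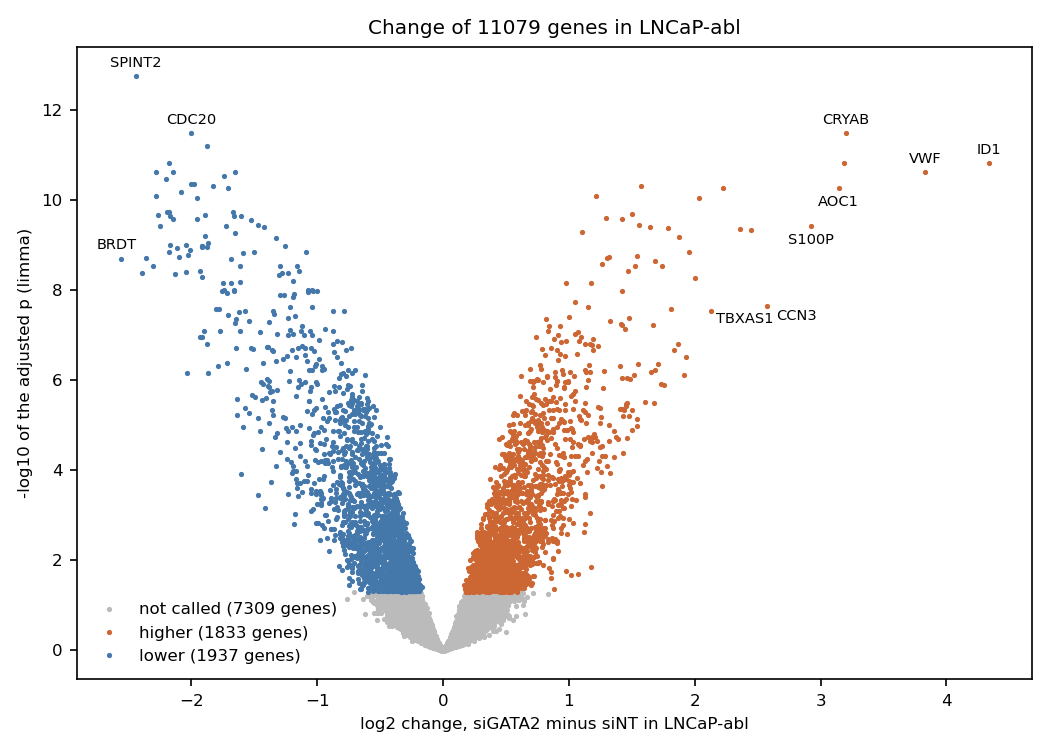
Change of each of 11079 genes in LNCaP-abl (x axis, log2 siGATA2 minus siNT) against the strength of the limma test (y axis, -log10 of the adjusted p), with 1 point a gene and called genes in colour. ID1 lies farthest to the right at 4.34, and SPINT2 has the smallest adjusted p among genes that fell.

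The largest rise in the line was that of ID1, which codes for an inhibitor of basic helix-loop-helix transcription factors. It read 5.87, 6.63 and 5.88 with siNT and then 10.37, 10.48 and 10.54 with siGATA2. All 3 siGATA2 arrays lay far above every siNT array, and the change was 4.34 (SE 0.19, adjusted p = 1.44e-11, 20.2-fold). VWF, the von Willebrand factor of blood clotting, was detected on only 1 of 3 siNT arrays, at 5.14, 4.79 and 5.08, and read 8.94, 8.85 and 8.73 under siGATA2 (change 3.83, SE 0.18, adjusted p = 2.29e-11). VWF is a marker of endothelial cells, of which EGFL7 also rose, by 0.63, while ESAM was detected on 1 array of each group and no other endothelial marker of the list had a named probe. The call of EGFL7 was lost without any 1 of 4 arrays (siNT replicates 1 and 3, siGATA2 replicates 2 and 3), with changes of 0.48 to 0.61. The summed level of VWF and EGFL7 was 85.6 to 88.0 on the linear scale under siNT and 487 to 583 under siGATA2, and its part in other results was not tested.

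CRYAB, a small heat shock protein, read 6.06, 6.24 and 5.90 with siNT and then 9.38, 9.28 and 9.15 with siGATA2, a rise of 3.20 (SE 0.12, 9.20-fold). AOC1, an amine oxidase that breaks down histamine and putrescine, read 5.22, 5.43 and 5.25 and then 8.57, 8.39 and 8.38, a rise of 3.14 (SE 0.16). S100P, a calcium-binding protein of epithelia, read 5.69, 6.05 and 5.87 and then 8.69, 8.76 and 8.93, a rise of 2.92 (SE 0.17). None of these 3 genes had overlapping groups, and each siGATA2 array was above all siNT arrays. CCN3, a matricellular protein, rose by 2.57 (SE 0.21). AKR1C3, an enzyme that reduces androstenedione to testosterone, rose by 2.36 (SE 0.14). The small GTPase RAB18 rose by 2.22 and the thromboxane synthase TBXAS1 by 2.13. The other members of the 15 largest rises were ID3, ID2, ENPP5 (2.03), LOC101929633 (2.00), the lysosomal membrane protein GPR137B (1.95) and CLRN3 (1.93).

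Most of the 15 largest falls were in genes of cell division, and 3 were not. SPINT2, a membrane inhibitor of serine proteases, read 12.41, 12.26 and 12.32 with siNT and then 9.87, 10.00 and 9.80 with siGATA2. The groups were separated by more than 2 log2 units and SPINT2 fell by 2.44 (SE 0.07, adjusted p = 1.69e-13, 5.42-fold). BRDT, a bromodomain protein of the testis, read 6.86, 7.10 and 7.10 under siNT and was detected on no siGATA2 array, so it was at least 3.80-fold lower (adjusted p = 2.01e-09). ODAM, a secreted protein known from tooth enamel, read 6.57, 6.97 and 6.92 and was likewise undetected under siGATA2, at least 3.31-fold lower (adjusted p = 2.8e-09). The division genes among the 15 were MCM10, AURKB, TOP2A, PTTG3P, CEP55, DEPDC1, CDCA3, NCAPG, UBE2C, PTTG1, DIAPH3 and CKAP2L, with changes of -2.40 to -2.17. PTTG3P is a near copy of PTTG1, so the source of its probe's signal is uncertain.

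**Figure D2:**
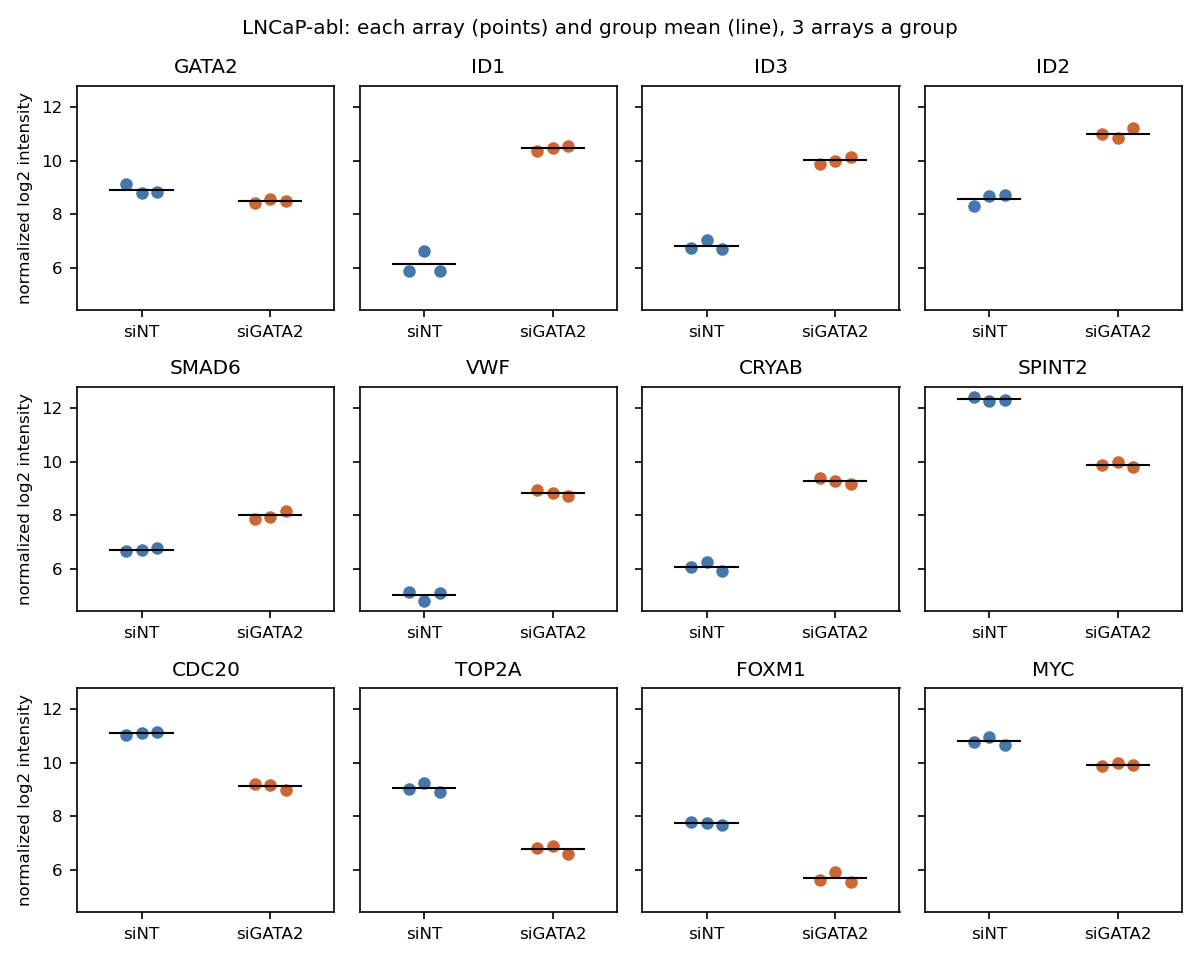
Normalized log2 intensity (y axis) on each Abl array (points, 3 a group) with the group mean (line) for 12 genes named in the text, on 1 common scale. The siNT and siGATA2 points of GATA2 lie closest, and those of ID1, VWF and CRYAB lie farthest apart.

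All 3 ID genes rose, and so did some ligands and feedback genes of the bone morphogenetic protein (BMP) pathway. BMPs are secreted ligands whose receptors phosphorylate SMAD proteins, and ID1, ID2, ID3 and the inhibitory SMADs are known targets of these SMADs in many cell types. ID3 read 6.74, 7.05 and 6.70 with siNT and then 9.89, 10.01 and 10.15 with siGATA2, a rise of 3.19 (SE 0.14, 9.10-fold). ID2 read 8.32, 8.66 and 8.71 and then 10.98, 10.85 and 11.21, a rise of 2.45 (SE 0.15). The groups did not overlap for any of the 3 ID genes. Among the ligands, BMP2 read 6.71, 6.21 and 6.60 and then 7.71, 8.02 and 8.17, a rise of 1.46 (SE 0.17). INHBB, a subunit of activin and inhibin, rose by 0.93 (SE 0.14) and GDF15, a distant member of the family induced by stress, by 0.71 (SE 0.08). GDF11, the fourth ligand tested, had a change of -0.23 (adjusted p = 0.122). Of 10 receptors and SMADs, the receptor ACVR1 (0.73) and the signal transducer SMAD5 (0.41) rose and 8 were not called. That share is near the 16.5% of all genes that rose.

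Of the 8 feedback genes of the pathway, 3 rose, against 16.5% of all genes, and the median change was 0.12. SMAD6, which blocks BMP receptors, read 6.67, 6.70 and 6.76 with siNT. With siGATA2 it read 7.85, 7.95 and 8.17, a rise of 1.28 (SE 0.13). BAMBI, a decoy receptor, rose by 0.72 (SE 0.08) and HEY1, a repressor induced by BMP and Notch signals, by 0.57 (SE 0.20). The call of HEY1 was lost without siNT replicate 1 or 3 or siGATA2 replicate 3 or 4 (changes of 0.43 to 0.60). SMAD7, the other inhibitory SMAD, read 6.33, 6.49 and 6.75 and then 6.44, 6.82 and 6.29, so that its groups overlapped and its change was -0.01 (SE 0.18). Of the helix-loop-helix factors on the list, TCF3, which codes for the E proteins that ID proteins bind, fell by 0.56 (SE 0.12), HES6 rose by 0.51 (SE 0.08), and TCF12 (-0.03) and HES1 (0.48) were not called.

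Genes of the cell cycle fell as the broadest block. In the 13 cell cycle lists together, 143 of 190 genes tested fell, 6 rose and 41 were not called, and the median change was -0.94. Over all genes tested, 17.5% fell and the median change was 0.0030. The fall was at least 2-fold in 90 of the 190, against 2.18% of all genes. KIF4A, which no siGATA2 array detected, is in these counts, and the fall of such a gene lends them no support. Mitotic genes depend on factors that act at the end of the cycle and replication genes on E2F factors at its start, and the lists below are ordered from mitosis to replication.

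All 16 kinases and phosphatases of G2 and mitosis fell, with a median change of -1.54. AURKA, the spindle pole kinase, read 9.44, 9.51 and 9.34 with siNT and then 7.45, 7.42 and 7.40 with siGATA2, a fall of 2.00 (SE 0.10). AURKB, its relative in the chromosomal passenger complex, fell by 2.36 (SE 0.16), NEK2 by 2.15 and PBK by 2.17. CDK1, the kinase that starts mitosis, read 10.45, 10.67 and 10.68 and then 8.43, 9.06 and 8.57, a change of -1.91 (SE 0.14). Of 12 mitotic cyclins and regulators of the anaphase-promoting complex, 9 fell. CDC20, which activates that complex, read 11.05, 11.13 and 11.16 with siNT and then 9.19, 9.16 and 8.99 with siGATA2, a fall of 2.00 (SE 0.08, adjusted p = 3.1e-12). The cyclins CCNB1 and CCNB2 fell by 1.96 and 1.98, the ubiquitin-conjugating enzyme UBE2C by 2.18 and securin (PTTG1) by 2.18. The core subunits CDC16 (0.18) and ANAPC5 (0.02) and the activator FZR1 (-0.21) were not called. ANAPC1 (-0.47) is counted among the 9, but its probes were called in opposite directions. With the mean of each gene's probes, 8 of the 12 fell and 1 rose.

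Of 12 mitotic kinesins, 11 fell and KIF22 rose by 0.37 (SE 0.09). Among the 9 detected on all 6 Abl arrays, 8 fell. KIF4A, which binds chromosomes, read 7.01, 7.05 and 7.26 under siNT and was detected on no siGATA2 array, at least 4.04-fold lower (adjusted p = 4.4e-09). It passed the detection filter through its siNT arrays alone, so its fall lends the count no support. Of 22 centromere and kinetochore genes, 21 fell (median -1.32). BIRC5, or survivin, fell by 2.04 (SE 0.13), and HJURP, which loads the centromeric histone, read 7.35, 7.44 and 7.41 and then 5.20, 5.26 and 5.40, a change of -2.12 (SE 0.14). Of 15 genes of condensin, cohesin and chromosome structure, 11 fell. TOP2A, the topoisomerase that untangles chromosomes, read 9.01, 9.25 and 8.91 and then 6.83, 6.90 and 6.59, a change of -2.28 (SE 0.11, 4.87-fold). In these 3 lists no gene other than KIF22 was called higher.

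The promoters of the mitotic genes that fell often held the TTTGAA element. This element, the CHR, is where DREAM and related complexes bind cell cycle genes, and CCAAT boxes, bound by NF-Y, often lie beside it. RefSeq promoters of GRCh38.p14, from 250 bases before to 50 bases after the start, were searched on both strands. Genes with 1 listed start were counted. The promoters below belong to the 3 lowered mitotic genes with the largest falls that have 1 listed start and hold both words. Genes of 1 chromosome were left out of this choice, so a larger fall there would not be shown. Capitals mark TTTGAA and CCAAT on either strand.
TOP2A, chr17:40417847-40418146, minus strand: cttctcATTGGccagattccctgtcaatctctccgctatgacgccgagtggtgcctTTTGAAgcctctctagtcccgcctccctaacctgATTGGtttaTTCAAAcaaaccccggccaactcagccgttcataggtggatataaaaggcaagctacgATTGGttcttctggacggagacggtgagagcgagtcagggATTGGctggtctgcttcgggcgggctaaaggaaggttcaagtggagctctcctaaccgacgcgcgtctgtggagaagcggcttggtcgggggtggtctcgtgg
KIF4A, chrX:70289854-70290153, plus strand: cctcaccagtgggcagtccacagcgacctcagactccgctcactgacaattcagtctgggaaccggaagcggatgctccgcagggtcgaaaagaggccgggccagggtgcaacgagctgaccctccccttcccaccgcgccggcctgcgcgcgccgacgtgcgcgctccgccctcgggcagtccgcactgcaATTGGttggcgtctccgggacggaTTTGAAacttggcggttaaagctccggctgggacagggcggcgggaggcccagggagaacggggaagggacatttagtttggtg
HJURP, chr2:233854486-233854785, minus strand: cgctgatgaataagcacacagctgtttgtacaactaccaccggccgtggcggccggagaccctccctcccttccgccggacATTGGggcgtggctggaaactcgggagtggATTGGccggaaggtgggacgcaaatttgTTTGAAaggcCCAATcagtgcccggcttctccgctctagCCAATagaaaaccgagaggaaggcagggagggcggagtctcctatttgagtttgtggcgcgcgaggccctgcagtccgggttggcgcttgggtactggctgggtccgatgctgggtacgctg
In KIF4A the element starts 34 bases before the listed start and a CCAAT word 58 bases before it. In HJURP it starts 111 bases before, and in TOP2A 194 and 151 bases before. TTTGAA was present in 30 of 45 promoters of mitotic genes called lower (66.7%), in 605 of 6390 promoters of all genes tested (9.47%) and in 1 of 27 promoters of replication genes called lower (3.70%). CCAAT was present in 66.7% of the mitotic set and 38.6% of all genes tested. Only 4 promoters belong to mitotic genes not called lower, and 1 of these held TTTGAA and all 4 held CCAAT. Whether either word goes with the fall among mitotic genes was therefore not tested. Outside the cell cycle lists, TTTGAA was present in 28 of 94 promoters of genes at least 2-fold lower (29.8%). A match is a description of the letters and shows no binding.

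Replication genes fell as well, by less. Of 16 genes of the MCM helicase and of licensing, 13 fell (median -0.99). MCM10, which helps to start the replication fork, read 8.51, 8.40 and 7.87 with siNT and then 5.91, 5.94 and 5.75 with siGATA2, a change of -2.40 (SE 0.17). CDC45 and GINS2, partners of the MCM helicase, fell, with changes of -2.15 (SE 0.12) and -1.89 (SE 0.11). Of 25 genes for DNA polymerases, the sliding clamp and other fork proteins, 20 fell (median -0.82). FEN1, the flap endonuclease, fell by 1.33 (SE 0.08), and PCNA, the clamp, read 10.99, 11.06 and 11.09 and then 9.90, 10.02 and 9.97, a change of -1.09 (SE 0.07). Of 15 genes of nucleotide synthesis, 12 fell. Thymidylate synthase (TYMS) fell by 1.36, IMPDH2, the first step to guanine nucleotides, by 1.23 and CTPS1, which makes CTP, by 1.04. DUT, the dUTPase, was the member that rose (0.44), and it is named because of its direction, after its value was seen.

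E2F sites were searched in the same promoters as TTTCCCGC, TTTGGCGC, TTTCGCGC and TTTGCCGC on both strands (none of these words contains TTTGAA or CCAAT). Those of the 2 lowered replication genes with the largest falls that have 1 listed start and hold such a word are shown. Genes of the chromosome left out above were again left out, and the word is in capitals.
GINS2, chr16:85688905-85689204, minus strand: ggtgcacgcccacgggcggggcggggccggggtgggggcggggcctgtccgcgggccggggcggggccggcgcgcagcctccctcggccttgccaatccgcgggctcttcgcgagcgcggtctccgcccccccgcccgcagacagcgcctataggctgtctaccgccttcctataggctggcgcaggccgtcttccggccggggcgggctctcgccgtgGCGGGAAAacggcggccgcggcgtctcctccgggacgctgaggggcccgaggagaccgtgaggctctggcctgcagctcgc
GINS3, chr16:58392221-58392520, plus strand: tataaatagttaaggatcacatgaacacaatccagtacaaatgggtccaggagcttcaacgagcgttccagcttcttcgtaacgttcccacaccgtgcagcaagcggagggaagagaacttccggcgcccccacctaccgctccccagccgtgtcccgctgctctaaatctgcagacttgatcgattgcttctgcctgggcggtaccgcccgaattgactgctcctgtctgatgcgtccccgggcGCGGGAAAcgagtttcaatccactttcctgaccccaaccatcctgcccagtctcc
The word starts 31 bases before the listed start in GINS2 and 5 bases before it in GINS3, named here for its promoter, whose RNA fell by 1.41. An E2F word was present in 12 of 27 promoters of replication genes called lower (44.4%), in 5.73% of promoters of all genes tested and in 8.89% of those of mitotic genes called lower. GATA words (the word AGATAA, the word AGATAG, the word TGATAA and the word TGATAG, both strands) were present in 23.7% of promoters of genes at least 2-fold higher, in 14.9% of those at least 2-fold lower outside the cell cycle lists and in 13.9% of those of all genes tested. These windows hold no distant enhancers.

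**Figure D3:**
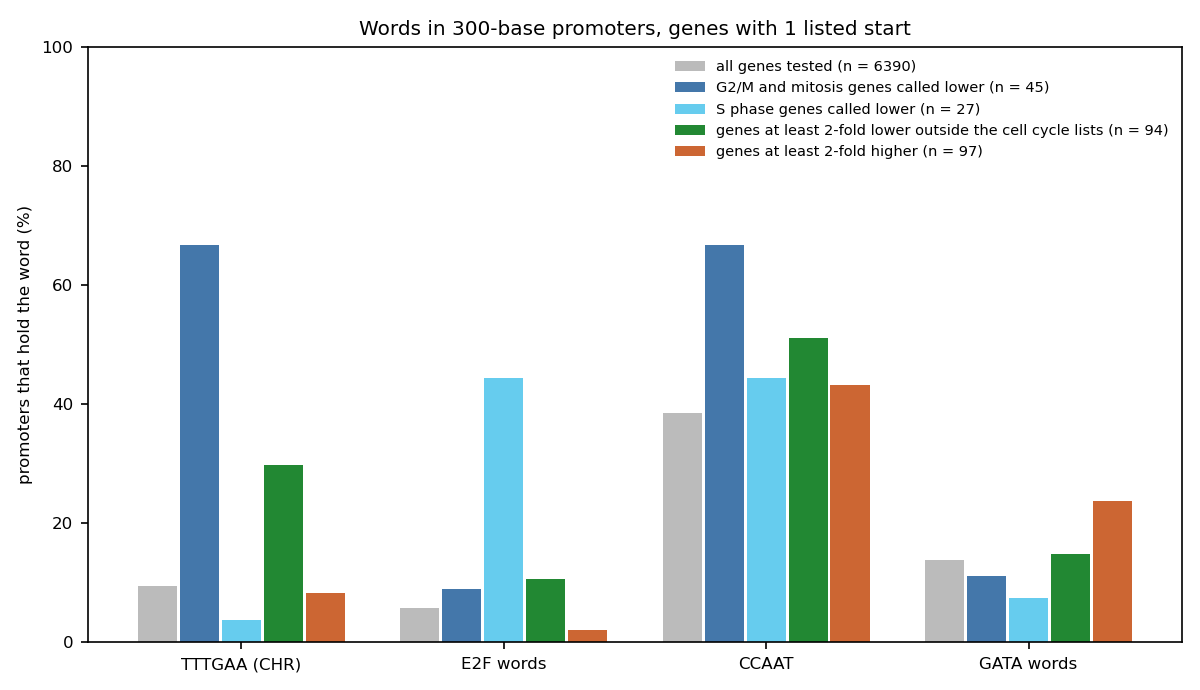
Share of 300-base RefSeq promoters that hold each word (y axis, percent) for 5 sets of genes with 1 listed start (bars). TTTGAA was found in 66.7% of lowered mitotic genes and E2F words in 44.4% of lowered replication genes, against 9.47% and 5.73% of all genes tested.

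Genes of DNA repair and of chromatin replication followed the same direction. Of 14 genes of homologous recombination and the Fanconi pathway, 11 fell and none was called higher, including RAD51AP1 (-1.65, SE 0.10) and the exonuclease EXO1 (-1.87, SE 0.17). Of 13 genes of DNA methylation and chromatin assembly, 9 fell and none was called higher. UHRF1, which brings the maintenance methyltransferase to new DNA, read 8.82, 8.81 and 8.66 with siNT and then 6.94, 6.84 and 6.87 with siGATA2, a change of -1.88 (SE 0.12). DNMT1, that methyltransferase, read 11.58, 11.67 and 11.57 and then 10.97, 10.85 and 10.83, a change of -0.73 (SE 0.08). The histone chaperone ASF1B fell by 1.91 (SE 0.17).

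Regulators of the cycle changed less uniformly than its machinery. Of 16 E2F factors, pocket proteins and DREAM subunits, 5 fell, TFDP2 rose by 0.54 and 10 were not called. The share called is near the 34% of all genes. FOXM1, which activates mitotic genes, read 7.80, 7.74 and 7.67 with siNT and then 5.63, 5.90 and 5.56 with siGATA2, a change of -2.04 (SE 0.14). E2F2, an activating E2F, fell by 1.62 (SE 0.13), E2F7, a repressing one, by 0.89 (SE 0.20), the pocket protein RBL2 by 0.55 (SE 0.08) and the MuvB subunit LIN9 by 1.18 (SE 0.26). LIN9 varied among the siGATA2 arrays, at 4.86, 6.32 and 6.05. Of 8 G1 cyclins and kinases, CDK2 (-0.68), SKP2 (-0.73), CKS1B (-1.16) and CKS2 (-1.03) fell and the cyclin CCNE1 rose by 0.38. The call of CCNE1 was lost without siGATA2 replicate 4 (0.35, adjusted p = 0.0542). Cyclin D1 (CCND1) read 11.84, 11.87 and 11.96 and then 11.57, 11.74 and 11.78, without overlap but not called (-0.19, adjusted p = 0.0781).

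The CDK inhibitors showed small rises at most. CDKN1A (p21) read 10.93, 11.19 and 11.13 with siNT and then 11.18, 11.30 and 11.45 with siGATA2, values that overlap, and its rise was 0.23 (SE 0.08, adjusted p = 0.0408). CDKN2B (p15) rose by 0.63 (SE 0.21, adjusted p = 0.025). Both calls were lost without siNT replicate 1 or 3 or siGATA2 replicate 3 or 4, with changes of 0.15 to 0.25 for CDKN1A and 0.49 to 0.64 for CDKN2B. CDKN2B was also not called with the mean of its probes. CDKN1B (p27) read 10.95, 10.95 and 10.97 and then 11.01, 10.91 and 11.11, a change of 0.05 (SE 0.08) that was not called. CDKN3, a phosphatase counted among these inhibitors whose level follows the cycle, fell by 1.53 (SE 0.09). Of 20 p53 target genes, 4 rose and 5 fell, against 16.5% and 17.5% of all genes. The falls included XPC (-0.60), DDB2 (-0.97), AEN (-0.56) and SPATA18 (-1.05). The 4 rises became 1 without siNT replicate 1, none without siGATA2 replicate 3, and 2 without siNT replicate 3 or siGATA2 replicate 4.

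MYC and the machinery that makes ribosomes fell in part. MYC, a transcription factor of cell growth, read 10.76, 10.96 and 10.66 with siNT and then 9.89, 9.98 and 9.92 with siGATA2, a change of -0.86 (SE 0.08, 1.82-fold). Its antagonists MXI1 (0.75), MXD4 (0.54) and MNT (0.29) rose, MXD3 fell by 1.17 (SE 0.24), and MAX, the shared partner, was not called (0.14). The call of MNT was lost without siNT replicate 1 or 2 or siGATA2 replicate 3 or 4 (0.20 to 0.31). Of 25 ribosome biogenesis genes, 20 fell and none was called higher, with a median of -0.60, against 17.5% lower among all genes. LYAR, a nucleolar protein, read 9.63, 9.81 and 9.66 and then 7.96, 8.22 and 7.94, a change of -1.66 (SE 0.09). The helicase DDX21 fell by 0.72, the methyltransferase fibrillarin (FBL) by 0.62 and POLR1C, a subunit of RNA polymerases I and III, by 0.80.

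Genes for the ribosome's own proteins moved far less. Of 38 cytoplasmic ribosomal proteins, 6 fell and the other 32 did not pass the test, and their median change was -0.05. That share is near the 17.5% of all genes that fell, and it was 2 of the 38 without siNT replicate 2 and 3 without siGATA2 replicate 4. Of 34 mitochondrial ribosomal proteins, 12 fell and 2 rose, against 17.5% and 16.5% of all genes, with MRPL24 (-0.79) and MRPS27 (0.47) at the ends. Of 18 aminoacyl-tRNA synthetases 4 fell, YARS1 by 0.70 (SE 0.07), against 17.5% of all genes. Of 18 translation initiation genes 5 fell and 1 rose, a share near the 34% called among all genes. The falls included EIF4EBP1 (-0.80), an inhibitor of translation initiation. EIF5 was called higher (0.66), but with the mean of its probes the change was 0.20 and not called.

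RNA processing and nuclear transport lists leaned lower, against 17.5% lower among all genes. Of 26 splicing genes, 12 fell and none was called higher (median -0.21). LSM4 read 11.33, 11.28 and 11.37 with siNT and then 10.11, 10.15 and 9.89 with siGATA2, a change of -1.28 (SE 0.09), and SF3B3, a subunit of U2 snRNP, fell by 1.02 (SE 0.14). Of 25 nucleoporins and transport receptors, 16 fell (median -0.35). The importin KPNA2 fell by 1.06 (SE 0.12), while the importin TNPO1 rose by 0.99 (SE 0.11). Of 16 RNA polymerase subunits, 7 fell and none was called higher (median -0.30).

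**Figure D4:**
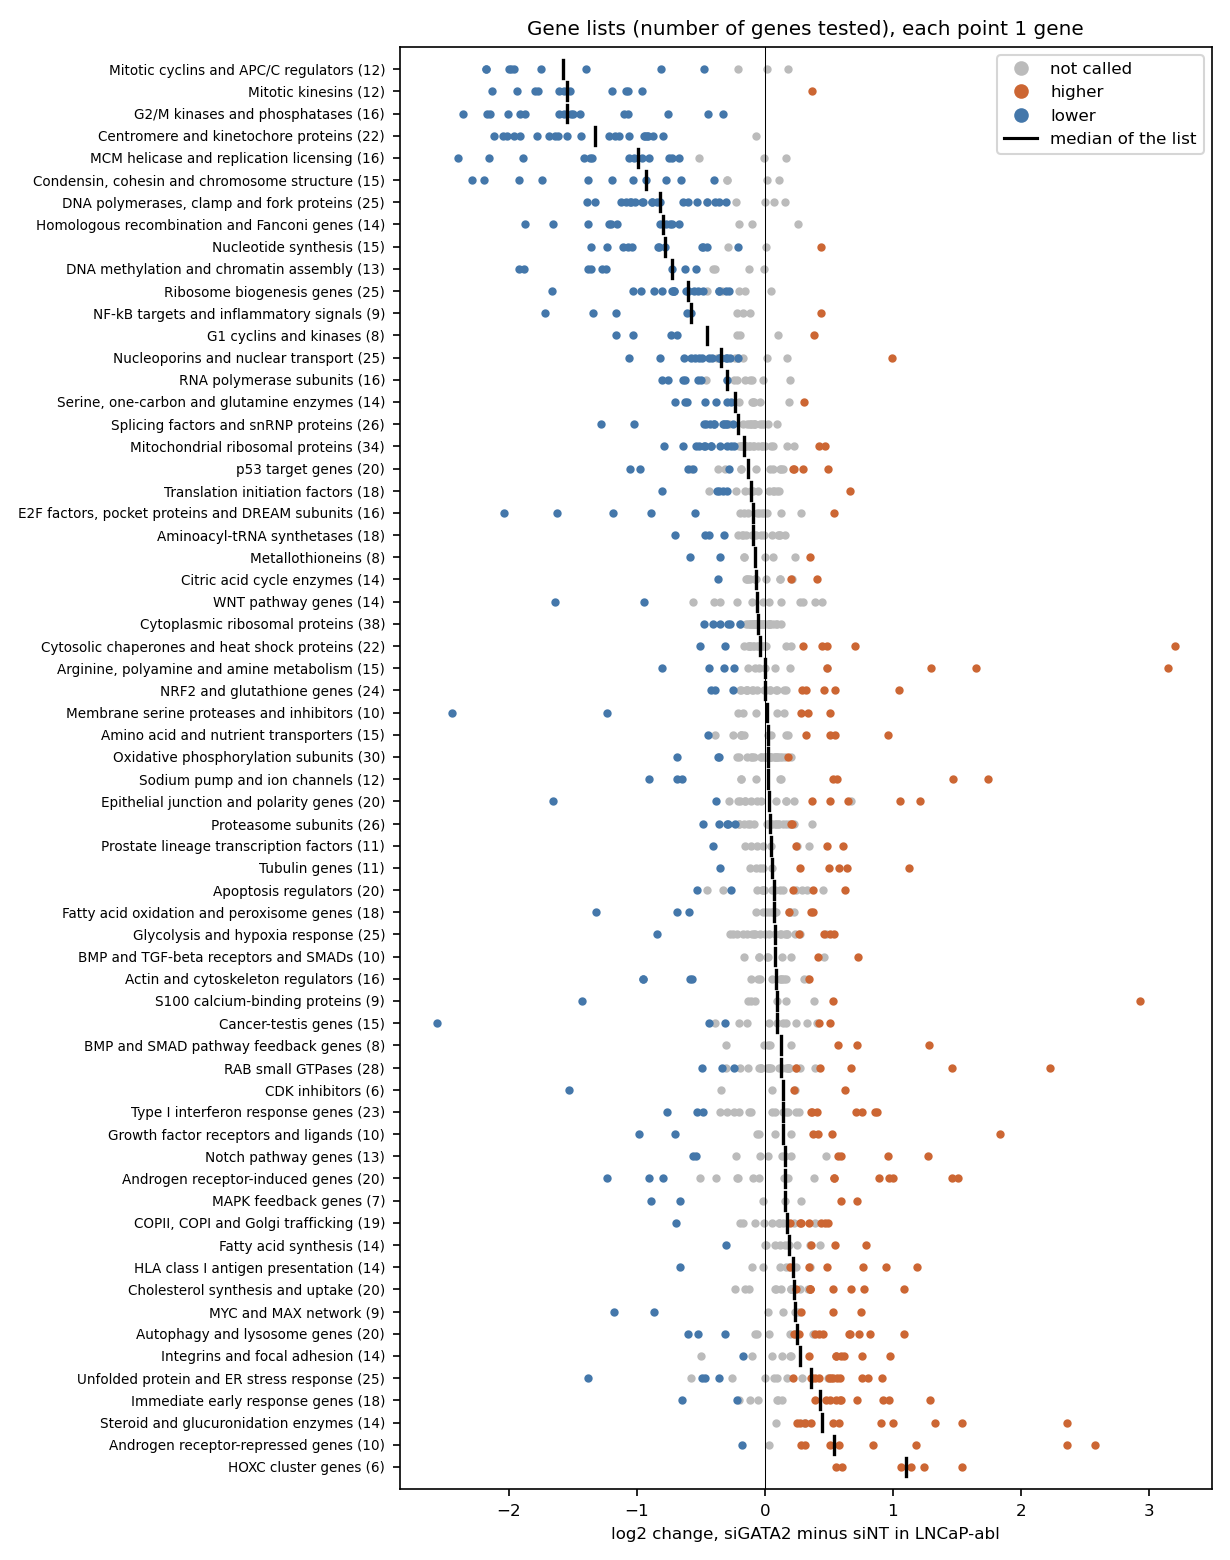
Log2 change (x axis, siGATA2 minus siNT in LNCaP-abl) of every tested gene in each list of 6 or more genes (rows, number tested in brackets), with 1 point a gene and the list's median as a bar. The mitotic lists have medians of -1.57 to -0.93 and the HOXC genes the highest, 1.10. The HOXC median includes HOXC12 and HOXC8, which no siNT array detected.

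Genes of protein folding in the endoplasmic reticulum (ER) leaned higher, with exceptions. Of 25 genes of the unfolded protein response, 13 rose and 4 fell (median 0.36), against 16.5% and 17.5% of all genes. DNAJB9, an ER co-chaperone, read 10.04, 10.19 and 9.93 with siNT and then 10.94, 10.87 and 11.10 with siGATA2, a rise of 0.91 (SE 0.09). DDIT3 (CHOP) rose by 0.76 (SE 0.10) and DDIT4, an inhibitor of mTORC1, by 0.59 (SE 0.07). PDIA4, a disulfide isomerase, went the other way, at 8.25, 8.40 and 8.38 and then 7.01, 7.04 and 6.85, a change of -1.38 (SE 0.12). Asparagine synthetase (ASNS), an ATF4 target, fell by 0.47 (SE 0.07). Of 19 genes of COPII, COPI and the Golgi, 7 rose and MIA3, which packages collagen, fell by 0.70. The 7 became 4 without siNT replicate 3 or siGATA2 replicate 2, a share near the 16.5% of all genes that rose.

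Of 20 autophagy and lysosome genes, 10 rose and 3 fell (median 0.25), against 16.5% and 17.5% of all genes. LAMP2, a lysosomal membrane protein, read 10.76, 10.67 and 10.67 with siNT and then 11.53, 11.54 and 11.48 with siGATA2, a rise of 0.82 (SE 0.07). WIPI1, which acts on the forming autophagosome, rose by 1.09 (SE 0.14), MAP1LC3B by 0.66 and the protease CTSD by 0.74. The lysosomal channel MCOLN1 fell by 0.60. Of 22 cytosolic chaperones 5 rose, including CRYAB, HSPB1 (0.45) and DNAJB4 (0.70), and 2 fell, a share near the 34% called among all genes. Of 26 proteasome subunits 2 rose and 5 fell, against 34% called among all genes. Without siNT replicate 2 or 3 these counts were 1 and 3 or 1 and 2.

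Enzymes that convert or conjugate steroids rose. Of 14 tested, 11 rose and none was called lower (median 0.45), against 16.5% higher among all genes. Beside AKR1C3, UGT2B28, a UDP-glucuronosyltransferase that conjugates androgens, read 7.60, 7.64 and 7.67 with siNT and then 8.77, 8.90 and 9.22 with siGATA2, a rise of 1.33 (SE 0.11). UGT2B15 and UGT2B17, the main androgen glucuronidases of the prostate, rose by 0.58 (SE 0.11) and 0.31 (SE 0.08). UGT2B4 rose by 1.54, UGT2B10 by 0.91 and HSD17B11 by 1.00. The UGT2B genes are close in sequence, so a probe may read more than 1 of them.

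Genes known to be repressed by androgen rose more evenly than genes known to be induced by it. Of 10 repressed genes, 8 rose and 1 fell (median 0.54), with OPRK1, an opioid receptor, at 9.17, 9.04 and 8.80 and then 10.15, 10.16 and 10.24 (1.18, SE 0.11) and the kinase PRKD1 at 10.97, 10.99 and 10.82 and then 11.80, 11.67 and 11.85 (0.84, SE 0.07). Among 20 induced genes 7 were called higher and 3 lower (median 0.16). Over all genes, 16.5% were called higher and 17.5% lower, and the share of induced genes called lower is near the latter. TSC22D3 (GILZ), which glucocorticoids also induce, rose 2.84-fold, and RAB3B rose by 1.46 on the log2 scale (SE 0.17), SLC45A3 (prostein) by 1.00 and KLF4 by 0.97. KLK4, a kallikrein protease of the prostate, read 8.97, 9.10 and 9.30 and then 8.01, 7.91 and 7.76, a change of -1.23 (SE 0.11). The channel TRPM8 was detected on no siGATA2 array and was at least 1.56-fold lower (adjusted p = 0.0061), and CENPN, which is also a centromere gene, fell by 0.79. TRPM8 passed the detection filter through its siNT arrays alone, so its fall lends the count no support. TMPRSS2 was not called (0.15).

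Among transcription factors of the prostate lineage, FOXA1, which opens chromatin with GATA2, read 12.59, 12.69 and 12.77 with siNT and then 13.03, 12.89 and 12.85 with siGATA2, a rise of 0.24 (SE 0.07, adjusted p = 0.0145) that was not called without siNT replicate 1 or siGATA2 replicate 2 (0.19 in both). Of the 11 lineage factors tested, 3 rose and 1 fell, a share near the 34% called among all genes, and without either of these arrays 1 rose. HOXB13 read 9.98, 10.04 and 10.20 and then 10.12, 9.99 and 10.06, with overlap and a change of -0.02 (SE 0.10). NFIB rose by 0.61 (SE 0.11) and GRHL2, a factor of epithelial identity, fell by 0.41 (SE 0.10). All 6 HOXC cluster genes tested rose, against 16.5% of all genes. Their median was 1.10, or 0.45 without background correction and 0.36 on the authors' processed values. HOXC4 read 5.94, 5.68 and 5.17 with siNT and then 6.82, 7.34 and 7.24 with siGATA2 (1.54, SE 0.20). HOXC13 read 8.67, 8.66 and 8.71 and then 9.97, 9.65 and 9.82 (1.14, SE 0.12). HOXC12 and HOXC8 were detected on no siNT array and were at least 2.05-fold and 1.57-fold higher (adjusted p = 6.27e-05 and 0.00015). These genes passed the detection filter through their siGATA2 arrays alone, so they lend the count and its median no support. HOXC6 rose by 0.56. HOXC11 rose by 0.60, a call lost without siNT replicate 1 or 3 or siGATA2 replicate 3 or 4 (0.50 to 0.55).

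Of 20 cholesterol genes, 8 rose and none was called lower (median 0.23), against 16.5% higher among all genes, with TM7SF2 (0.77) and SC5D (0.67), enzymes of the late pathway, and STARD4, a sterol carrier (1.09). That count was 5 without siGATA2 replicate 2. Of 15 genes of arginine and amine metabolism, 4 rose and 4 fell, against 16.5% and 17.5% of all genes. Without siNT replicate 2 the falls were 2. ARG2, a mitochondrial arginase, read 8.32, 8.28 and 8.23 with siNT and then 9.90, 9.86 and 10.02 with siGATA2, a rise of 1.65 (SE 0.10). SAT1, which acetylates polyamines for export, rose by 1.29 (SE 0.07), while ODC1, which makes putrescine, fell by 0.32 (SE 0.08). Of 14 serine, one-carbon and glutamine enzymes, 7 fell, against 17.5% of all genes, and PSAT1 rose by 0.31, with SHMT1 (-0.62), MTHFD1 (-0.60) and CTH (-0.70) among those lower. Of 30 oxidative phosphorylation subunits 1 rose and 3 fell, against 34% called among all genes (none and 5 without siNT replicate 1). Of 25 glycolysis and hypoxia genes 4 rose and HK2, a hexokinase, fell by 0.84, also against 34% of all genes. AMACR, a racemase of branched fatty acids used as a prostate cancer marker, read 11.82, 11.90 and 12.04 and then 10.49, 10.83 and 10.50, a change of -1.32 (SE 0.12). Of 24 NRF2 and glutathione genes 5 rose, GSTA1 by 1.04, and 3 fell, a share near the 34% of all genes. Of 8 metallothionein genes MT2A rose by 0.35 while MT1X and MT1F fell by 0.58 and 0.35, a share near the 34% of all genes.

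Part of the NF-kB targets tested fell while antigen presentation genes leaned higher. Of 9 NF-kB targets, 5 fell, against 17.5% of all genes. NFKBIA, which codes for the inhibitor of NF-kB, rose by 0.44 (SE 0.10). CXCL8 (interleukin 8) read 8.48, 8.67 and 8.37 with siNT and then 6.44, 6.95 and 6.98 with siGATA2, a change of -1.72 (SE 0.17, 3.29-fold). The chemokine CCL20 read 8.24, 8.49 and 8.25 and then 7.02, 6.94 and 7.00, a change of -1.34 (SE 0.18). The chemokine CCL2 was detected on no siGATA2 array and was at least 1.61-fold lower (adjusted p = 0.000192). It passed the detection filter through its siNT arrays alone, so its fall lends the count no support. SOD2 fell by 0.58 and TNFAIP3 by 0.61, and the call of TNFAIP3 was lost without siNT replicate 2 or siGATA2 replicate 3 (-0.52 and -0.54). Of 14 genes of class I antigen presentation, 6 rose, against 16.5% of all genes, and TAP2 fell by 0.66. HLA-C read 5.88, 6.07 and 6.20 and then 7.26, 7.43 and 7.04 (1.19, SE 0.16), HLA-E rose by 0.76 and HLA-B by 0.94. Probes of HLA genes can read more than 1 of these close relatives.

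Of 23 interferon response genes, 7 rose and 3 fell (median 0.14), a share near the 34% of all genes. IFITM2 and IFITM3, neighbours that code for near-identical antiviral membrane proteins, rose by 0.88 and 0.86 (SE 0.10 for each), ISG20 by 0.76 and the ubiquitin-like ISG15 by 0.71. XAF1 (-0.76) and IRF1 (-0.48) fell. XAF1 was not called without siNT replicate 2 or 3 (-0.59 and -0.60) and IRF1 not without siNT replicate 2 (-0.40). The 3 falls became none without siNT replicate 2 and 1 without siNT replicate 3.

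Among signalling genes, 10 of 18 immediate early genes rose and 2 fell (median 0.43), against 16.5% and 17.5% of all genes. KLF6, a zinc finger factor, read 7.07, 6.60 and 6.31 with siNT and then 7.74, 7.85 and 8.25 with siGATA2, a rise of 1.29 (SE 0.19). FOS rose by 0.92 (SE 0.19), the phosphatase DUSP1 by 0.72 (SE 0.09) and ZFP36, which destabilizes messenger RNAs, by 0.60 (SE 0.13). Of 13 Notch genes 4 rose, against 16.5% of all genes, among them the glycosyltransferase LFNG (1.27) and the ligand DLL1 (0.96). The ligands JAG2 (-0.56) and DLL3 (-0.54) fell, and DLL3 was not called with the mean of its probes. Of 14 WNT genes 2 fell and none was called higher, fewer than the 34% called among all genes. These were RNF43, which removes WNT receptors from the surface, at 7.38, 7.87 and 8.01 and then 6.06, 6.13 and 6.16 (-1.64, SE 0.20), and the co-receptor LRP5 (-0.94, SE 0.13). IGFBP5, a binding protein of insulin-like growth factors, read 6.35, 6.27 and 6.59 and then 8.10, 8.11 and 8.51, a rise of 1.84 (SE 0.17). IGF1 itself fell by 0.98 (SE 0.18) and IGFBP3 by 0.70, and the receptors ERBB3 and ERBB2 rose by 0.53 and 0.41.

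At the cell surface, CDH1 (E-cadherin), the adhesion molecule of epithelia, read 11.16, 11.14 and 11.04 with siNT and then 12.37, 12.28 and 12.33 with siGATA2. It rose by 1.21 (SE 0.06, adjusted p = 7.95e-11, 2.32-fold). CLDN12 (1.05) and CLDN7 (0.65), claudins of tight junctions, rose too, while CLDN8 read 9.29, 9.04 and 9.02 and then 7.43, 7.59 and 7.36, a change of -1.66 (SE 0.13). In all, 5 of 20 junction and polarity genes rose and 2 fell, a share near the 34% of all genes. Of 14 integrin and focal adhesion genes 7 rose and 1 fell, against 16.5% and 17.5% of all genes. The kinase PTK2 (FAK) read 10.09, 9.93 and 9.90 and then 10.98, 10.89 and 10.98, a rise of 0.98 (SE 0.07). In contrast to S100P, S100A11 fell, from 10.63, 10.77 and 10.82 to 9.28, 9.41 and 9.26 (-1.42, SE 0.08). Beside SPINT2, the related inhibitor SPINT1 rose by 0.34 and the proteases PRSS8 and HPN by 0.51 and 0.29. The calls of SPINT1 (0.25 to 0.37) and HPN (0.19 to 0.30) were each lost without any 1 of 5 arrays, all but siNT replicate 3 for SPINT1 and all but siGATA2 replicate 3 for HPN. Matriptase (ST14), a protease that SPINT2 inhibits, was not called (-0.21, adjusted p = 0.13).

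Of 12 pump and channel genes, 4 rose and 3 fell, against 16.5% and 17.5% of all genes. ATP1B1, the beta subunit of the sodium pump, read 6.99, 6.69 and 7.03 with siNT and then 8.43, 8.48 and 8.21 with siGATA2, a rise of 1.47 (SE 0.10). KCNU1, a potassium channel known from sperm, rose by 1.74 (SE 0.12), and the calcium channel TRPV6 fell by 0.65 (SE 0.12). Of 16 actin and cytoskeleton genes, 4 fell and TPM1, a tropomyosin, rose by 0.34, a share near the 34% of all genes. The falls included TMSB15A, a thymosin, at -0.95 (SE 0.10) and the tubulin-binding protein STMN1 at -0.95 (SE 0.14). Of 11 tubulin genes, 5 rose, against 16.5% of all genes, and TUBB fell by 0.35 (SE 0.09), a call lost with the mean of its probes. TUBB2A rose by 1.12 (SE 0.10), and without siNT replicate 1 or siGATA2 replicate 2 the 5 became 3. Of 15 cancer-testis genes tested, MAGEA4 (0.42) and PRAME (0.51) rose and 3 fell, BRDT, MAGEA1 (-0.44) and PAGE1 (-0.31), a share near the 34% of all genes. BRDT passed the detection filter through its siNT arrays alone, so its fall lends the count no support. The call of PAGE1 was lost without siNT replicate 1 or siGATA2 replicate 2 or 3 (-0.30 to -0.26).

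The Abl change was set against the MDVR change by testing the difference itself in the same fit. That difference was called for 802 of 11079 genes (7.24%), with Abl the more negative for 452 (4.08%) and the more positive for 350 (3.16%). Of the 3770 genes called in Abl, 654 had a called difference. Probes were chosen on the Abl arrays alone, and for 76 of the 802 genes at least 1 of the 4 groups had no array that detected the probe, so that the size of the difference is not known there. In both lines 796 genes rose and 814 fell, and 49 were called in opposite directions. Serum and enzalutamide differed together with the line, so these cannot be told apart.

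Among the 190 genes of the cell cycle lists the Abl change was the more negative for 86 and the more positive for 3, against 4.08% and 3.16% of all genes tested. These 89 are a small part of the 802 called differences, and for 2 of the 86 a group had no array that detected the probe. The median change was -0.94 in Abl and -0.34 in MDVR. For TOP2A the change was -2.28 in Abl and -0.37 in MDVR, a difference of -1.91 (adjusted p = 3.08e-07). The difference was -1.65 for CDC20 and -1.28 for FOXM1. UHRF1 fell by 1.74 in MDVR, and its difference of -0.14 was not called (adjusted p = 0.691, 95% interval -0.50 to 0.22). For MYC the difference was -0.65 (adjusted p = 0.00186). The ribosome biogenesis genes had a median of -0.46 in MDVR and -0.60 in Abl, and 1 of the 25 had a called difference.

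Among the ID genes, ID3 and ID2 rose in both lines and by more in Abl, with differences of 2.70 (adjusted p = 1.77e-07) and 0.94. The probe of ID1 was detected on all 6 Abl arrays but in MDVR on no siNT array and 1 siGATA2 array, so the size of its difference is not known. AOC1, BMP2 and CXCL8 were detected on all 6 Abl arrays and on no MDVR array, and no difference is read for them. GDF15 differed by 0.82. SDCBP2, a syntenin, rose by 0.78 in Abl and fell by 2.26 in MDVR (difference 3.04), and the metalloprotease MMP10 rose 2.83-fold in Abl and fell by 1.01 on the log2 scale in MDVR (difference 2.51). In MDVR 2 of 3 siGATA2 arrays detected SDCBP2 and 1 of 3 detected MMP10. HEPACAM, a cell adhesion molecule, was not called in Abl (0.19, adjusted p = 0.483) and fell in MDVR, where all siNT arrays and no siGATA2 array detected it. ATP1B1 differed by 1.57 and was not called in MDVR (-0.10). S100P rose by 3.63 in MDVR, and the difference of -0.71 was not called (adjusted p = 0.0872). SPINT2 fell in both lines, by 0.55 more in Abl (adjusted p = 0.00306), and ODAM was detected on all siNT arrays and no siGATA2 array of both, so that its falls cannot be compared.

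**Figure D5:**
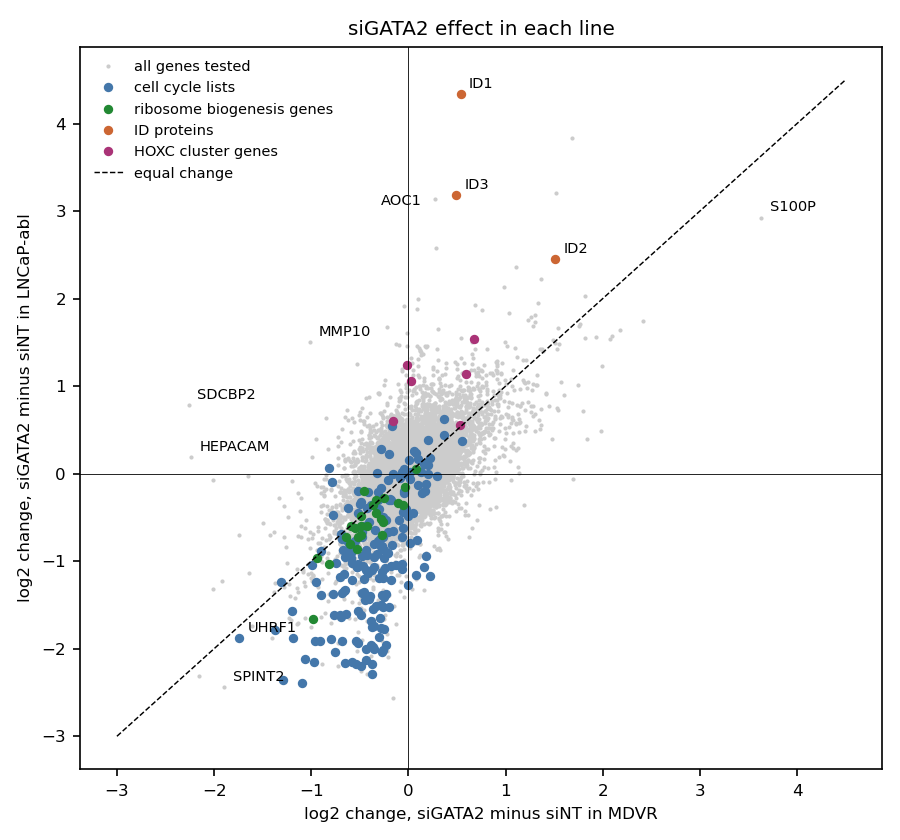
Log2 change under siGATA2 in MDVR (x axis) and in LNCaP-abl (y axis) for all genes tested (grey) and for 4 groups of lists (colours), with the line of equal change dashed. Most cell cycle genes lie below that line, with medians of -0.94 in LNCaP-abl and -0.34 in MDVR, and ID3 lies above it by 2.70.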

How the data were processed

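RNA of LNCaP-abl and MDVR cells was measured on 12 Illumina BeadChip arrays in 4 groups of 3. The deposited table gives each probe's intensity, not normalized, with a detection p-value from the scanner, both as the authors deposited them. A second deposited table holds the authors' log2 values for 23043 probes, made with lumi, per the submitters' processing notes. It served as an alternative. The array number limits precision. The labels do not say that replicates were separate cultures, so p-values measure the spread between these samples, which may be technical.

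Intensities were background-corrected from the level of the 770 negative controls implied by the detection p-values, quantile-normalized and put on the log2 scale (neqc, offset 16, limma 3.58.1 in R 4.3.3). Of the kept probes 14612 had 1 gene symbol in the platform annotation and 4875 had none or several. The brightest probe stood for each of the 2867 genes with several, and 14 genes had probes called in opposite directions. A linear model of 4 group means over the 12 arrays with moderated variance (eBayes with trend) gave each contrast, adjusted by Benjamini-Hochberg over 11079 genes at 0.05. The median SE was 0.13. A probe detected on no array of a group has only a bound there, and such folds are written as at least N-fold, against the higher of the lowest detected signal and the probe's own. Such a probe passed the filter through the other group alone, so its direction gives a list's count no support. The procedure was tested on simulated data.

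Members, gene lists and markers were chosen with earlier results of these data known. The named genes are GATA2, the 15 largest rises and falls among called genes whose groups did not overlap, up to 6 genes with the smallest adjusted p of each list (all genes of lists with 12 or fewer), the 6 largest differences between lines each way, and 13 genes such as MYC, FOXM1 and HOXB13 whatever their values. Alternatives were other background corrections, scalings, detection filters, probe rules and variance models, a replicate block, a test beyond 1.5-fold and each Abl array left out.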

Additional observations from a re-analysis of the deposited data

Results flagged for a closer look

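The change differed between LNCaP-abl and MDVR, by the test of the difference itself in limma, for 802 genes and for 32 of the genes with the largest changes or differences. Values are the change in LNCaP-abl minus the change in MDVR on the log2 scale. Among genes of cell division the difference was -1.07 for AURKB, -1.48 for CDCA3, -1.90 for CEP55, -1.61 for CKAP2L, -1.77 for DEPDC1, -1.28 for DIAPH3, -1.89 for DLGAP5, -1.81 for ESCO2, -1.30 for MCM10, -1.71 for NCAPG, -1.80 for PTTG1, -1.85 for PTTG3P, -1.91 for TOP2A and -1.64 for UBE2C. SPINT2 (-0.55) also had the more negative change in LNCaP-abl. For ESCO2 no LNCaP-abl siGATA2 array detected the probe. BRDT has a fitted value of -2.41, but only the siNT arrays of LNCaP-abl detected its probe, so neither size is known.

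The change was the more positive in LNCaP-abl for ID3 (2.70), ID2 (0.94), SDCBP2 (3.04), MMP10 (2.51), VWF (2.15), CRYAB (1.68), AKR1C3 (1.25), TBXAS1 (1.15), RAB18 (0.85) and GPR137B (0.62). Fitted values of the same sign belong to 6 genes with at least 1 MDVR group in which no array detected the probe, so that their size is not known. These are ID1 (3.80), AOC1 (2.87), HEPACAM (2.42), CCN3 (2.29), LOC101929633 (1.90) and CLRN3 (1.25). SDCBP2 was detected on 2 and MMP10 on 1 of the 3 MDVR siGATA2 arrays, and VWF on 1 of the 3 siNT arrays of each line. Line, serum and enzalutamide differed together between these groups and cannot be told apart.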

How the results depend on the processing

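The counts of genes changed in LNCaP-abl (3770, of which 1833 higher and 1937 lower) stayed within 1.5 times of those reported under every alternative run but one, while the count that differed between lines (802) moved further under 3, and no called value changed sign. In a test for changes beyond 1.5-fold, 371 genes were called, 157 higher and 214 lower, and 64 differed between lines. Leaving out each Abl array gave 3107 to 3545 changed genes, 1486 to 1687 higher and 1604 to 1858 lower, and 508 to 738 genes that differed between lines, with the lowest count, 508, without siGATA2 replicate 4. With the replicate number as a block within each line, 2876 genes were called, 1393 higher and 1483 lower, and 384 differed between lines, less than 802 by over 1.5 times, as was the 508. Same-numbered Abl arrays deviated together at r = 0.14 and 0.0070, so the numbers were not taken as pairs. GATA2 changed by -0.47 to -0.31 over the arrays left out, was not called at -0.31 without siNT replicate 1 (adjusted p = 0.055), at -0.31 with the block (adjusted p = 0.0829) or at -0.41 beyond 1.5-fold (adjusted p = 1). Among the named genes and lists, 284 gene values under some alternative were no longer called and 54 list counts moved by over 1.5 times. The other 5376 were gene values whose call stayed the same or list counts that stayed within 1.5 times. Probes near background limit the size of a change, since the correction sets their low level. The cause of the other shifts was not tested.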
